A study of Mus musculus with 8 samples.

Results

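The genes described here were 36 regulators of apoptosis and caspases, chosen by name. In all, 18193 genes had a probe set of their own on the arrays. They comprised the Bcl2 family, the caspases, the apoptosome and mitochondrial release factors, the inhibitors of apoptosis, the death receptors with their adaptors, and p53. Such a probe set, naming exactly 1 gene, was found for 33 of the 36 members, and the one with the highest mean over all 8 arrays stood for the gene. The mean level of 31 members passed the filter on low values (log2 5.27) and these were tested. Pmaip1 and Tnfrsf10b lay below it, and Bax, Ripk1 and Trp53 were not analysed here.

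RNA was taken from pancreatic islets of male C57Bl/6 mice, wild type or with a knockout of Irs2 (Irs2-/-). Irs2 relays signals of the insulin receptor, and its loss in mice leads to diabetes with a loss of beta cells. Mice of each genotype drank distilled water (called untreated here) or water with sodium tungstate, an oral glucose-lowering salt, for 21 days from 10 weeks of age, and islets were taken at 13 weeks. Each of the 4 groups held 2 arrays, described as independent samples. The sources used here do not say whether a sample was a pool of mice, so that p-values reflect only how far these samples differ, which may be technical. The tungstate concentration is 2 mg/ml in the design text and 2 mg/dl in the sample labels, so that the dose is not settled. Values are log2 expression per probe set and are given for replicate 1 and then replicate 2 of a group. Levels of different genes come from different probes and were not compared with each other.

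Apoptosis runs along a mitochondrial route and a death receptor route. In the mitochondrial route, BH3-only proteins free the effectors Bax and Bak1 from pro-survival proteins such as Bcl2, and cytochrome c then assembles Apaf1 and Casp9 into the apoptosome. In the receptor route, Fas and Tnfrsf1a recruit Fadd and Casp8, with Cflar as a brake, and both routes end in executioner caspases. Casp1 and Casp4 belong to another branch, the inflammasomes, where Casp1 processes interleukin 1 beta. Both cut gasdermin D to open pores in the membrane, a form of death called pyroptosis.

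The Irs2 probe set read 7.91 and 7.73 in untreated wild-type islets and 7.89 and 7.61 in tungstate-treated wild-type islets, against 4.54 and 4.89 in untreated and 4.78 and 4.86 in treated Irs2-/- islets, as the labels state. The labelled tissue showed its beta cell markers on every array, with a mean of the 8 marker genes between 10.33 and 11.81. With 2 arrays a group, the number of arrays limits the precision: over all tested genes, differences between 2 groups had a median standard error (SE) of 0.14 (log2). The 2 replicates of each untreated group stood apart from each other, in different respects. In untreated wild-type islets the mean of the 9 acinar markers was 8.99 on replicate 1 and 11.77 on replicate 2. Treated wild-type arrays lay between, at 10.34 and 10.50, so these markers do not mark replicate 1 as the odd one. On the same 2 untreated arrays the mean was 8.41 and 7.01 for the 8 fibroblast and stellate markers, and 6.73 and 5.42 for the 10 lymphocyte markers. Casp1 (5.61 and 4.60) and Casp4 (5.37 and 4.57) were also higher on replicate 1 there. In untreated Irs2-/- islets the A20 gene Tnfaip3 read 10.62 on replicate 1 and 7.75 on replicate 2, with 6.46 to 7.77 on the other 6 arrays. The main results are given with and without replicate 1 of both untreated groups, and with other arrays left out. For Casp1 and Casp4, leaving out replicate 1 keeps the lower of the 2 values in each untreated group.

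In untreated mice, 3 of the 31 tested members were higher in Irs2-/- than in wild-type islets at an adjusted p under 0.05, namely the inflammatory caspases Casp1 and Casp4 and the pro-survival gene Bcl2, and 0 were lower. That is 9.68% of the members, where 16.8% of all 13369 tested genes passed (8.27% higher and 8.52% lower), so the share among the members lay below that among all tested genes. The median difference of the members was 0.06, against -0.01 over all tested genes. At an unadjusted p under 0.05, 8 members passed, all of them higher (Casp1, Casp4, Bcl2, Apaf1, Birc3, Fas, Casp12 and Bik), and 33.2% of all tested genes did. For 11 members both Irs2-/- arrays lay above both wild-type arrays (28.9% of all tested genes), and for 5 both lay below (31.7%).

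Over the 4 comparisons of 2 groups, the largest absolute log2 difference was below 0.1 for 5 of the 31 members (16.1%, against 5.90% of all tested genes), below 0.3 for 20 (64.5%, against 52.6%) and below 1 for 27 (87.1%, against 93.3%). These counts rest on 1 probe set per gene, and other tested probe sets gave larger differences between the untreated genotypes for Xiap (-1.04), Mcl1 (0.65) and Diablo (-0.43). Other tested probe sets also gave 0.19 for Bcl2l2 and 0.13 for Fadd there, and -0.12 for Bad with tungstate in wild-type islets. On the probe sets used, the 5 below 0.1 were Fadd, the adaptor of Fas, Tnfrsf1a, the main receptor for tumour necrosis factor, Bcl2l2, a pro-survival protein, Bad, a BH3-only protein controlled by phosphorylation, and Birc2, an inhibitor of apoptosis that ubiquitinates its targets.

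**Figure D1:**
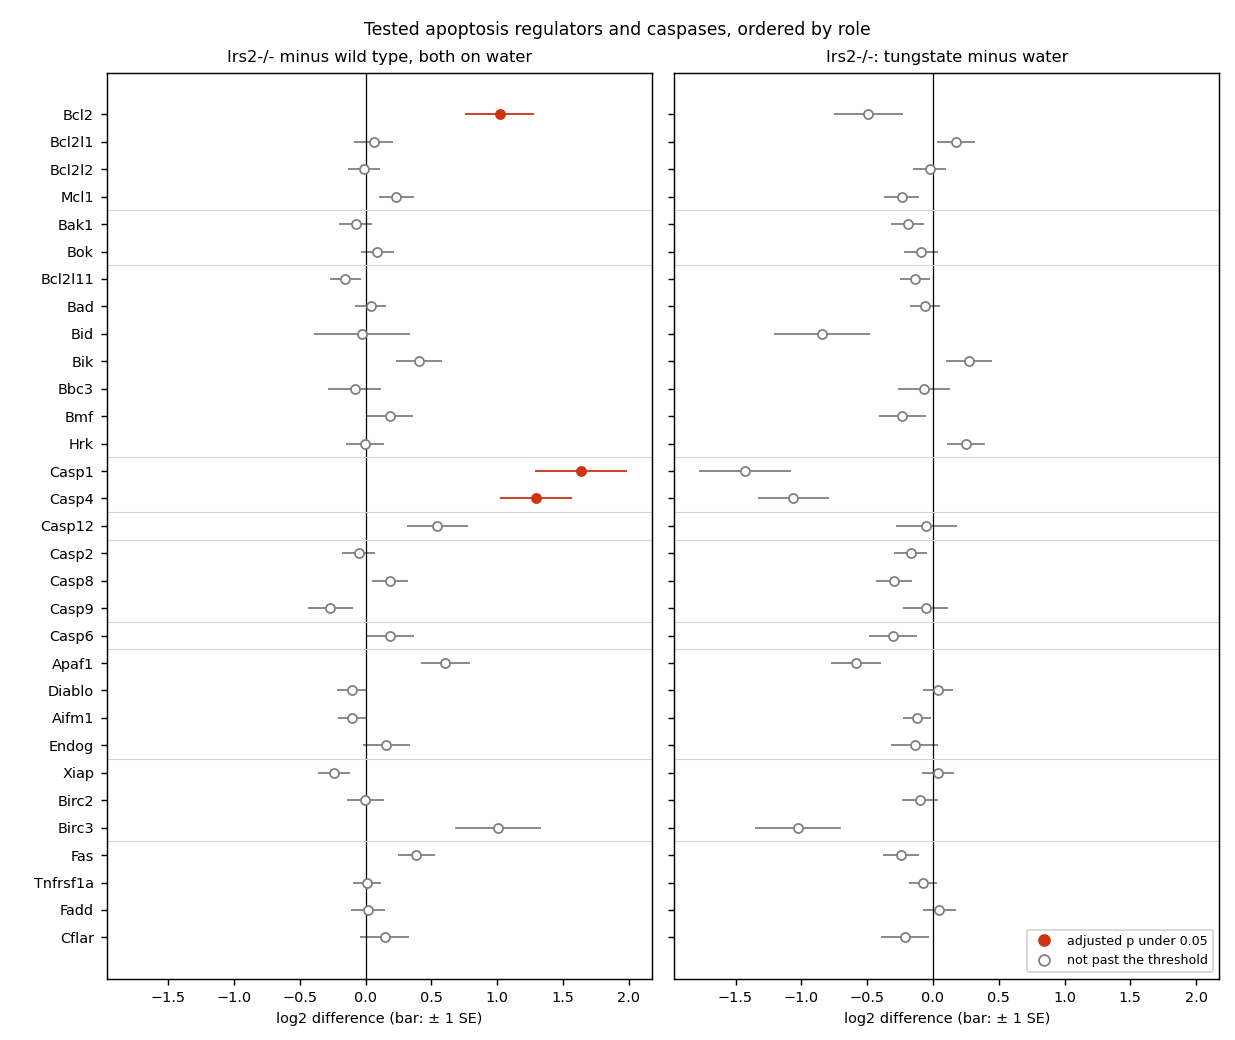
Log2 difference of each of the 31 tested members, ordered by role, between Irs2-/- and wild-type islets on water (left) and between tungstate and water in Irs2-/- islets (right); bars are ± 1 SE of the fit on 8 arrays. Casp1, Casp4 and Bcl2 passed an adjusted p of 0.05 on the left (filled points), and none did on the right, where Casp1 and Casp4 had the lowest values, -1.43 and -1.06.

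Casp1 encodes the inflammasome protease that matures interleukin 1 beta and interleukin 18. It read 5.61 and 4.60 in untreated wild-type islets, 5.10 and 4.95 in treated wild-type islets, 7.16 and 6.32 in untreated Irs2-/- islets, and 5.20 and 5.42 in treated Irs2-/- islets. Both untreated Irs2-/- arrays lay above the other 6 arrays. Between the genotypes on water the difference was 1.64 ± 0.35 (SE), 3.11-fold higher in Irs2-/- islets (limma, adjusted p = 0.0208). Because these are whole islets, more cells of a type that expresses the gene and more RNA per cell cannot be told apart.

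Casp4 encodes caspase 11, the mouse sensor of cytosolic lipopolysaccharide in the non-canonical inflammasome. Its values were 5.37 and 4.57 in untreated and 4.71 and 4.78 in treated wild-type islets, and 6.53 and 5.99 in untreated and 5.32 and 5.09 in treated Irs2-/- islets. Again the untreated Irs2-/- arrays lay above all others, while the remaining 3 groups spanned 4.57 to 5.37. The difference between the genotypes on water was 1.29 ± 0.27 (2.45-fold, adjusted p = 0.0189).

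Over the 6 arrays outside untreated Irs2-/- islets, the mean was 5.15 for Casp1 and 4.97 for Casp4, so both passed the filter of 5.27 only through the group in which they were high. With no filter the adjusted p was 0.0209 for Casp1 and 0.0189 for Casp4. Leaving out replicate 1 of both untreated groups gave 1.72 for Casp1 (adjusted p = 0.0156) and 1.43 for Casp4 (adjusted p = 0.0223). Both calls ended without untreated wild-type replicate 2 (Casp1 1.13, adjusted p = 0.0860; Casp4 0.89, adjusted p = 0.0758), without untreated Irs2-/- replicate 1 (Casp1 1.22, adjusted p = 0.0929; Casp4 1.02, adjusted p = 0.0909) and when only the 4 arrays compared were fitted (adjusted p = 0.0564 and 0.0527).

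In tungstate-treated mice the genotypes differed by 0.28 ± 0.35 for Casp1 (adjusted p = 0.767) and by 0.46 ± 0.27 for Casp4 (adjusted p = 0.468). Within Irs2-/- islets, tungstate against water gave -1.43 ± 0.35 for Casp1 (2.69-fold lower, unadjusted p = 0.00376, adjusted p = 0.147) and -1.06 ± 0.27 for Casp4 (2.09-fold lower, unadjusted p = 0.00456, adjusted p = 0.160). Neither passed the adjusted threshold, although both treated arrays lay below both untreated arrays for each gene. These comparisons share the untreated Irs2-/- arrays with the genotype comparison on water. Within wild-type islets the values were -0.07 ± 0.35 for Casp1 and -0.22 ± 0.27 for Casp4. The test of the difference between the tungstate effects in the 2 genotypes gave -1.35 ± 0.50 for Casp1 (unadjusted p = 0.0266, adjusted p = 0.726) and -0.84 ± 0.38 for Casp4 (unadjusted p = 0.0609, adjusted p = 0.789).

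Casp12 encodes a caspase of the inflammatory subfamily known for its link to endoplasmic reticulum stress in rodents. It read 5.48 and 5.33 in untreated and 5.23 and 5.11 in treated wild-type islets, against 6.17 and 5.73 in untreated and 6.24 and 5.56 in treated Irs2-/- islets. All 4 Irs2-/- arrays lay above all 4 wild-type arrays. Averaged over treatments, the genotype difference was 0.64 ± 0.17 (1.55-fold, adjusted p = 0.0299). On water it was 0.54 ± 0.23 (adjusted p = 0.148) and on tungstate 0.73 ± 0.23 (adjusted p = 0.177), and neither alone passed. Within Irs2-/- islets tungstate gave -0.05 ± 0.23, beside -1.43 for Casp1 and -1.06 for Casp4, and the difference between the 3 genes was not tested. The second Casp12 probe set gave 0.53 on water, 0.93 on tungstate and 0.05 for tungstate in Irs2-/- islets. The averaged call ended without any 1 array of the untreated wild-type or treated wild-type groups, without untreated Irs2-/- replicate 1 and without treated Irs2-/- replicate 1 (0.46 to 0.67, adjusted p = 0.0503 to 0.102).

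**Figure D2:**
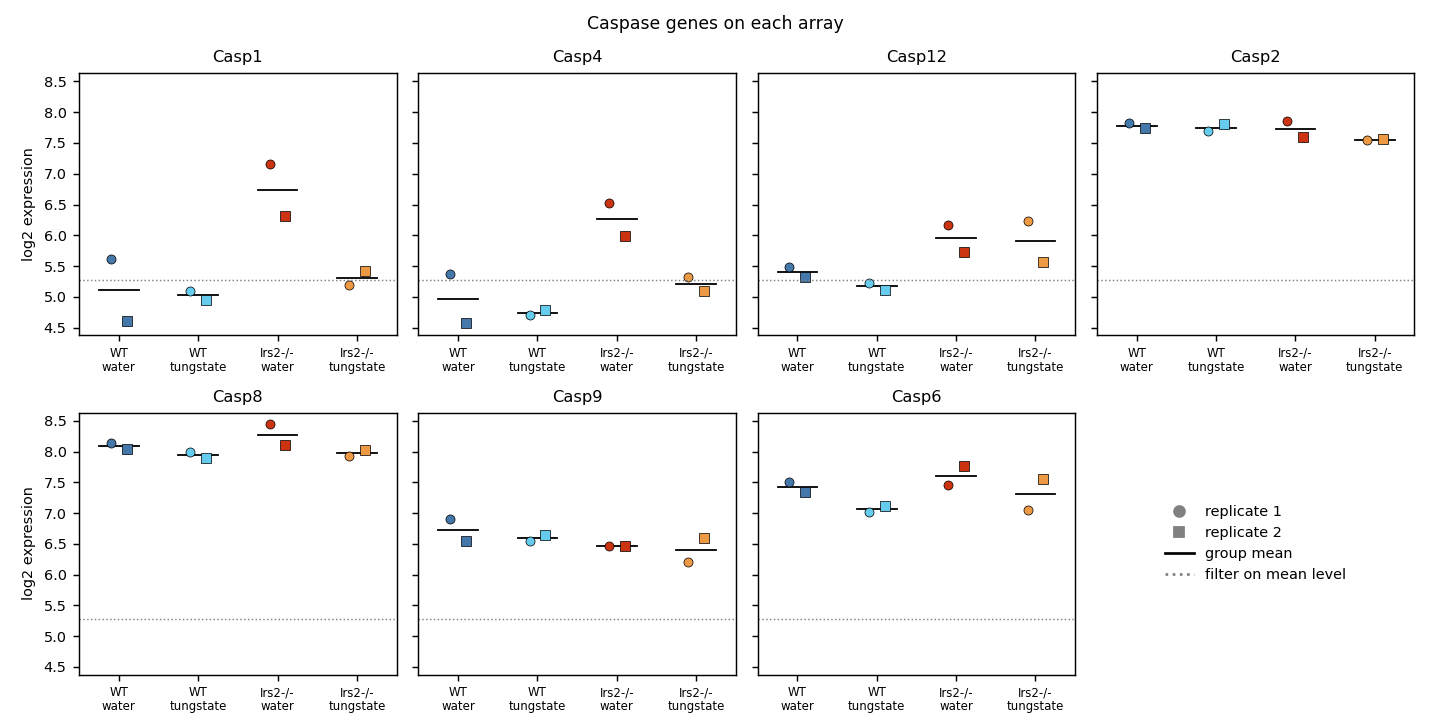
Log2 expression of the 7 caspase members on each of the 8 arrays, with replicate 1 as a circle, replicate 2 as a square, the group mean as a line and the filter on mean level (5.27) dotted. Casp1 and Casp4 were high on the 2 untreated Irs2-/- arrays. Casp12 was above the wild-type arrays on all 4 Irs2-/- arrays, but narrowly on treated replicate 2 (5.56, against 5.48 on untreated wild-type replicate 1). Casp2, Casp8, Casp9 and Casp6 each varied by less than 1 between any arrays.

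In RefSeq's table for GRCm38.p6, Casp1, Casp4 and Casp12 are neighbours in this order on chromosome 9, between Gria4 and Pdgfd. Their promoter windows run up to 250 bases before an annotated transcript start. They are shown because these 3 caspases lie side by side and passed in a genotype comparison, Casp12 only in the average over treatments. All 3 are on the plus strand, at chr9:5298267-5298516, chr9:5308599-5308848 (the first of 2 Casp4 starts) and chr9:5345226-5345471. Capitals mark matches to the gamma-activated site TTCNNNGAA, an element of promoters that respond to interferon gamma, in Casp12 and to the kappa-B consensus, bound by NF-kB factors, in Casp4.
Casp1: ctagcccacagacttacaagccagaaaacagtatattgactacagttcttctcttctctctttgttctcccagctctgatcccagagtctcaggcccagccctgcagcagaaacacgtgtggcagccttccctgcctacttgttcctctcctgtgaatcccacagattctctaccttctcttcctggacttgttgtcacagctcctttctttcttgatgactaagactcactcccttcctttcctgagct
Casp4: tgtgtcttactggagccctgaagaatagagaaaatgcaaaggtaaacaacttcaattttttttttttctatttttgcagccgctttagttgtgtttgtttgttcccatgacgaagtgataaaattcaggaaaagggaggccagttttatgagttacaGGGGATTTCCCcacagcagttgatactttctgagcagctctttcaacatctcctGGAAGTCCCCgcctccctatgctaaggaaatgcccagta
Casp12: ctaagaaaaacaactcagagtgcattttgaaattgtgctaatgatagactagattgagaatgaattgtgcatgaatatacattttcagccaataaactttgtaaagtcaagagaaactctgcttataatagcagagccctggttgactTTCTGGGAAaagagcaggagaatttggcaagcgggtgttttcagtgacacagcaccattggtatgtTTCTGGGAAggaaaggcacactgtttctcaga
Casp12 held 2 matches to the gamma-activated site, starting 102 and 36 bases before the transcript start used. The end of the Casp12 window lies past an earlier annotated start of the gene, which the match at 36 overlaps. The gamma-activated site pattern is its own reverse complement, so a match on 1 strand is also a match on the other. Among 32851 windows of RefSeq genes, 7.02% held at least 1. The interferon-stimulated response element, read as GAAA, any 2 bases and GAAA (2.98% of windows), and a narrow NF-kB motif, read as GGGA, any 2 bases and TTCC (1.21%), were also searched on both strands and had no match in the 3 windows. The wider kappa-B consensus, searched after the narrow pattern had given no match and including every match to it, was held by 7.25% of windows. It matched in Casp4 at 93 and 92 bases before the start, in overlapping positions, and at 39 on the minus strand, and had no match in Casp1 or Casp12. Among the other tested members with a window, Fas had 1 gamma-activated site match starting 93 bases before the start and Tnfrsf1a had 1 at 244. The kappa-B consensus also matched in Aifm1, at 162 on the minus strand. It matched in Bcl2l1 at 242 and in Bbc3 at 137 and 136, in windows that lay inside the gene.

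Markers of immune cells, in which the inflammatory caspases are also expressed, moved with Casp1 and Casp4. The mean of 14 of 15 listed macrophage markers with a probe set was 7.08 to 7.38 in untreated and 7.09 to 7.20 in treated wild-type islets, 8.60 to 8.71 in untreated Irs2-/- islets and 7.46 to 7.54 in treated Irs2-/- islets. At an adjusted p under 0.05, all 13 tested macrophage markers passed as higher in untreated Irs2-/- than in untreated wild-type islets (median 1.40). Among all tested genes 8.27% did. With tungstate in Irs2-/- islets the differences of all 13 were negative, and 7 of 13 passed as lower (0.471% of all tested genes). The mean of 10 lymphocyte markers was 5.42 to 6.73, 5.39 to 6.23, 7.34 to 8.18 and 5.96 to 6.60 in the same 4 groups. Between the untreated genotypes all 10 differences were positive, and 3 of 10 passed as higher. For 10 interferon response genes the mean was 6.81 to 7.28, 6.87 to 7.00, 7.66 to 8.29 and 7.08 to 7.39. Of their differences between the untreated genotypes 9 were positive, and 5 of 10 passed as higher. Beta cell markers went the other way, with means of 11.71 to 11.76 in untreated wild-type and 10.33 to 10.55 in untreated Irs2-/- islets. All 8 differences were negative, and 6 of 8 passed as lower (8.52% of all tested genes). The part of these cell types in the caspase values was not tested.

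Stromal markers followed the genotype on both treatments, as did Casp12 and Bcl2. The mean of the 8 fibroblast and stellate markers was 7.01 to 8.41 in untreated and 6.12 to 6.39 in treated wild-type islets, and 8.57 to 8.94 in untreated and 7.91 to 8.42 in treated Irs2-/- islets. On tungstate all 8 had both Irs2-/- arrays above both wild-type arrays (22.4% of all tested genes did). Their median difference was 2.08, with 1 of 8 past the threshold, against 1.07 on water. Tungstate gave a median of -1.52 in wild-type and -0.68 in Irs2-/- islets, with 0 of 8 past the threshold in each. In the average over treatments the differences of all 8 were positive, and 6 of 8 passed as higher (10.9% of all tested genes). The mean of the 8 endothelial markers was 7.78 to 8.00 on the 4 wild-type and 8.29 to 8.76 on the 4 Irs2-/- arrays. All 8 had positive differences in the average, and 4 of 8 passed as higher. Of 5 tested duct markers 4 passed as higher in the average, and of 9 acinar markers 1 did. All 5 and all 9 differences were positive there. All 9 acinar markers also had both Irs2-/- arrays above both wild-type arrays on tungstate (median difference 1.01). Their part in the Casp12 and Bcl2 values was not tested.

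**Figure D3:**
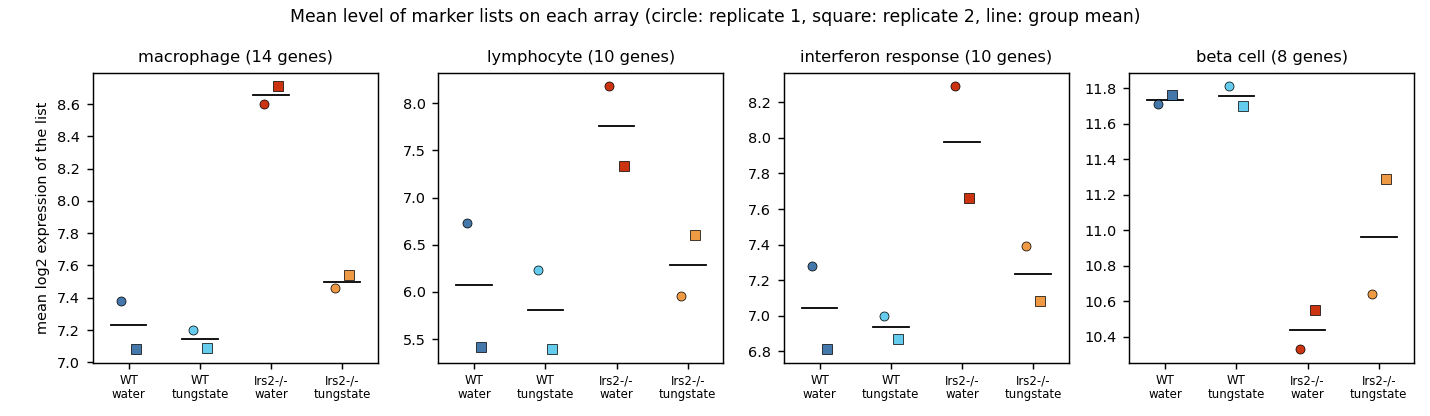
Mean log2 expression of the macrophage, lymphocyte, interferon response and beta cell marker lists on each array, with replicate 1 as a circle, replicate 2 as a square and the group mean as a line; each panel has its own vertical scale. The macrophage, lymphocyte and interferon lists were highest on the 2 untreated Irs2-/- arrays, where the beta cell list was lowest.

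Among the initiator caspases none passed in any comparison. Casp9, the apoptosome protease, had the largest difference of the 3 between the untreated genotypes, with 6.91 and 6.54 in untreated and 6.54 and 6.65 in treated wild-type islets, and 6.46 and 6.46 in untreated and 6.20 and 6.60 in treated Irs2-/- islets. On water both Irs2-/- arrays lay below both wild-type arrays, by -0.27 ± 0.17 (adjusted p = 0.325). The other tested Casp9 probe set gave 0.13 on water, and the mean over its probe sets gave -0.03. Casp8, the protease of the death receptor complex, differed by 0.19 ± 0.14 on water (adjusted p = 0.393) and by -0.30 ± 0.14 with tungstate in Irs2-/- islets (adjusted p = 0.402). Casp2, an initiator that acts outside the apoptosome, ranged only from 7.55 to 7.86 over the 8 arrays.

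Casp6, an executioner caspase that cleaves lamins, read 7.50 and 7.34 in untreated and 7.02 and 7.11 in treated wild-type islets, and 7.46 and 7.76 in untreated and 7.05 and 7.56 in treated Irs2-/- islets. The genotypes overlapped on water (0.18 ± 0.18, adjusted p = 0.535). With tungstate, both wild-type arrays were lower than both untreated ones (-0.35 ± 0.18, adjusted p = 1), while the Irs2-/- arrays overlapped (-0.30 ± 0.18, adjusted p = 0.516).

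Bcl2, the founding pro-survival gene of its family, was the member outside the caspases that passed between the untreated genotypes. Its probe set read 6.99 and 6.66 in untreated and 6.72 and 6.40 in treated wild-type islets, and 8.11 and 7.58 in untreated and 7.68 and 7.02 in treated Irs2-/- islets. All 4 Irs2-/- arrays lay above all 4 wild-type arrays. The genotype difference was 1.02 ± 0.26 on water (2.03-fold, adjusted p = 0.0368), 0.80 ± 0.26 on tungstate (adjusted p = 0.190) and 0.91 ± 0.19 averaged over treatments (1.88-fold, adjusted p = 0.0131). Tungstate gave -0.49 ± 0.26 in Irs2-/- islets (adjusted p = 0.466), where treated and untreated arrays overlapped.

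The 5 Bcl2 probe sets disagreed on the genotype difference on water. In a separate limma fit over 27022 probe sets, the one used here, 1457687_at, was the only 1 of them to pass (adjusted p = 0.0467). The adjusted p-values of the other single probe sets come from that fit as well. Probe set 1422938_at read 6.57 and 6.84 in untreated wild-type and 6.69 and 6.44 in untreated Irs2-/- islets, a difference of -0.14 (adjusted p = 0.636). The other 3 gave 0.40 (1437122_at, adjusted p = 0.410), 0.33 (1443837_x_at, adjusted p = 0.353) and 1.14 (1440770_at, below the filter on low values). With the mean of its probe sets in place of 1, Bcl2 differed by 0.55 (adjusted p = 0.126). The call also ended without replicate 1 of both untreated groups (0.92, adjusted p = 0.205) and without any 1 array of the wild-type groups or untreated Irs2-/- replicate 1 (0.75 to 1.19, adjusted p = 0.0638 to 0.170). Lymphocytes, whose markers moved in the same direction, also express Bcl2, and their part in this value was not tested.

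**Figure D4:**
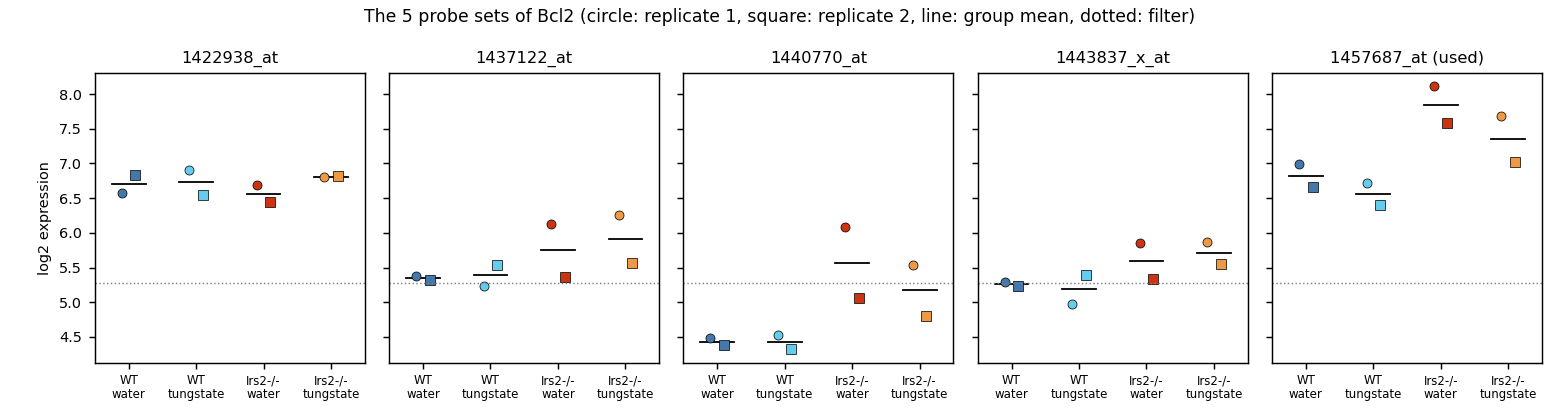
Log2 expression of the 5 probe sets that name Bcl2 on each of the 8 arrays, with replicate 1 as a circle, replicate 2 as a square, the group mean as a line and the filter on mean level dotted. The probe set used (1457687_at) was higher on all 4 Irs2-/- arrays, whereas 1422938_at differed by -0.14 between the untreated genotypes.

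The other pro-survival genes did not pass in any comparison. Mcl1, a short-lived protein that restrains Bak1, read 10.22 and 9.98 in untreated wild-type and 10.43 and 10.23 in untreated Irs2-/- islets, a difference of 0.23 ± 0.13 (adjusted p = 0.270), and its 6 probe sets gave 0.16 to 0.65. Bcl2l1, which encodes Bcl-xL, differed by 0.06 ± 0.14 and Bcl2l2 by -0.01 ± 0.12. Among the pore-forming effectors, Bok, an effector that acts without BH3-only activation, read 6.83 and 6.85 in untreated and 6.95 and 6.95 in treated wild-type islets, and 6.77 and 7.08 in untreated and 6.85 and 6.82 in treated Irs2-/- islets. The untreated genotypes overlapped (0.09 ± 0.13, adjusted p = 0.680). Bak1 differed by -0.08 ± 0.13 (adjusted p = 0.723).

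Of the 7 tested BH3-only genes, which sense stress and set off the mitochondrial route, 0 passed in the comparison of untreated genotypes by limma (16.8% of all tested genes did) and 1 had an unadjusted p under 0.05 (33.2% of all tested genes). That gene was Bik, a BH3-only protein of the endoplasmic reticulum. Bik read 6.30 and 6.27 in untreated and 6.54 and 6.59 in treated wild-type islets, and 6.44 and 6.93 in untreated and 7.10 and 6.82 in treated Irs2-/- islets. Within each treatment both Irs2-/- arrays lay above both wild-type arrays. The difference was 0.40 ± 0.17 on water (adjusted p = 0.149), 0.39 ± 0.17 on tungstate (adjusted p = 0.322) and 0.40 ± 0.12 averaged over treatments (adjusted p = 0.0526). Its 3 probe sets gave 0.33 to 0.65 on water.

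Bid, which Casp8 cleaves to link the receptor route to mitochondria, was chosen for mention after its values were seen. It read 6.41 and 5.65 in untreated and 5.93 and 5.83 in treated wild-type islets, and 6.58 and 5.42 in untreated and 5.13 and 5.18 in treated Irs2-/- islets. The untreated arrays of both genotypes were wide apart and overlapped (-0.03 ± 0.37). Tungstate in Irs2-/- islets gave -0.84 ± 0.37 (unadjusted p = 0.0498, adjusted p = 0.375), but -0.13 on the second tested probe set. The remaining tested BH3-only genes, Bcl2l11 (Bim), Bad, Bbc3 (Puma), Bmf and Hrk, differed by -0.15 to 0.18 between the untreated genotypes.

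Pmaip1, which encodes the p53 target Noxa, was below the filter and not tested. It read 5.36 and 3.98 in untreated and 4.39 and 4.08 in treated wild-type islets, and 8.23 and 4.85 in untreated and 4.25 and 4.42 in treated Irs2-/- islets. A single array, replicate 1 of untreated Irs2-/- islets, stood far above the other 7. That was also the array on which Tnfaip3 was high.

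Apaf1, the scaffold of the apoptosome, read 6.41 and 5.90 in untreated and 5.89 and 5.95 in treated wild-type islets, and 6.93 and 6.59 in untreated and 6.23 and 6.12 in treated Irs2-/- islets. The untreated Irs2-/- arrays lay above the other 6, as for Casp1 and Casp4, but no comparison passed. The genotype difference on water was 0.60 ± 0.19 (adjusted p = 0.0627) and tungstate in Irs2-/- islets gave -0.59 ± 0.19 (unadjusted p = 0.0143, adjusted p = 0.238), with both sharing the untreated Irs2-/- arrays. The 3 proteins released from mitochondria differed less on water, by -0.10 ± 0.11 for Diablo, an antagonist of the inhibitors of apoptosis, by -0.11 ± 0.11 for Aifm1, a flavoprotein that can move to the nucleus, and by 0.16 ± 0.18 for the nuclease gene Endog. A second Diablo probe set, 1425768_at, was lower in Irs2-/- islets averaged over treatments (-0.38 ± 0.08, adjusted p = 0.0227 over all probe sets), and was singled out after its values were seen.

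Birc3, an inhibitor of apoptosis that ubiquitinates proteins of the tumour necrosis factor receptor complex, read 7.50 and 7.38 in untreated and 7.26 and 6.93 in treated wild-type islets, and 9.03 and 7.85 in untreated and 7.34 and 7.49 in treated Irs2-/- islets. Both untreated Irs2-/- arrays were above the others, with replicate 1 far above replicate 2. The genotype difference on water was 1.004 ± 0.328 (adjusted p = 0.0730) and tungstate in Irs2-/- islets gave -1.03 ± 0.33 (adjusted p = 0.238). One array decided these values. Without replicate 2 of untreated Irs2-/- islets they were 1.59 (adjusted p = 0.00711) and -1.62 (adjusted p = 0.0147), and without replicate 1 of both untreated groups they were 0.47 and -0.44. The second Birc3 probe set gave 0.37 and -0.11.

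Xiap, which binds and blocks active caspases, differed by -0.24 ± 0.12 on water (adjusted p = 0.203), and its 3 tested probe sets ranged from -1.04 to 0.09. Birc2 differed by -0.002 ± 0.138. In the receptor route, Fas read 5.42 and 5.31 in untreated and 5.39 and 5.43 in treated wild-type islets, and 5.90 and 5.59 in untreated and 5.42 and 5.59 in treated Irs2-/- islets. On water both Irs2-/- arrays were above both wild-type arrays, by 0.39 ± 0.14 (adjusted p = 0.0956), and on tungstate the difference was 0.09 ± 0.14. Tnfrsf1a and Fadd differed by 0.01 ± 0.11 and 0.02 ± 0.13 on water. Cflar differed by 0.14 ± 0.18 on the probe set used and by -0.26 to 0.43 over its 5 probe sets. The death receptor gene Tnfrsf10b lay below the filter on every array, between 4.49 and 4.70.

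Tungstate moved no member past the threshold. In Irs2-/- islets 0 of 31 passed by limma (0.494% of all tested genes did) and 5 had an unadjusted p under 0.05 (13.3% of all genes), namely Casp1, Casp4, Apaf1, Birc3 and Bid, all with lower values on tungstate. The differences of 25 of the 31 were negative (6952 of all 13369 tested genes), with a median of -0.14 against -0.01 over all tested genes. For 12 members both treated arrays were below both untreated ones (22.9% of all tested genes) and for 2 above (17.6%). In wild-type islets 0 of 31 passed (0% of all genes) and 1 had an unadjusted p under 0.05 (2.72%), which was Aifm1 with -0.25 ± 0.11 (unadjusted p = 0.0465, adjusted p = 1). The differences of 23 of the 31 were negative there too (7699 of all 13369 tested genes), with a median of -0.10 against -0.03 over all genes. Both treated arrays were below for 10 members (21.9% of all genes) and above for 4 (15.2%).

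Between the genotypes on tungstate, 0 of 31 members passed by limma (1.02% of all tested genes) and 2 had an unadjusted p under 0.05 (16.1%), Casp12 and Bcl2. Both Irs2-/- arrays were above both wild-type arrays for 9 members (22.4% of all genes) and below for 4 (25.7%). The test of whether the tungstate difference itself differed between genotypes passed for 0 of 31 (0.0224% of all genes), with 1 at an unadjusted p under 0.05 (6.45%), which was Casp1. Averaged over treatments, 4 of 31 passed as higher in Irs2-/- islets and 0 as lower, or 12.9%, where 22.1% of all tested genes passed. An unadjusted p under 0.05 was reached by 8 (36.9% of all genes). The 4 were Bcl2, Casp4 (0.88 ± 0.19, adjusted p = 0.0163), Casp1 (0.96 ± 0.25, adjusted p = 0.0297) and Casp12. All 4 Irs2-/- arrays lay above all 4 wild-type arrays for 2 members, Bcl2 and Casp12 (9.55% of all genes, with 14.4% lower), and overlapped for Casp1 and Casp4. Over single arrays left out, the averaged call of Casp1 held only without untreated wild-type replicate 1 or untreated Irs2-/- replicate 2 and ended otherwise (adjusted p = 0.0547 to 0.0996). That of Casp4 ended without either treated wild-type array (adjusted p = 0.0638 and 0.0573), and that of Bcl2 without treated wild-type replicate 2 (adjusted p = 0.0579). Without replicate 1 of both untreated groups Casp1 and Casp4 still passed in the average (1.002 and 0.943), while Casp12 gave 0.56 (adjusted p = 0.125) and Bcl2 gave 0.86 (adjusted p = 0.0508).

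Around the members, a list of 58 further genes of cell death was read in the same fit, of which 53 had a probe set and 46 were tested. Between the untreated genotypes 5 passed as higher and 1 as lower, or 13.0% (16.8% of all tested genes). With tungstate in Irs2-/- islets 0 passed as higher and 1 as lower, 2.17% of the list (0.494% of all tested genes). Between the genotypes on tungstate, in wild-type islets and in the interaction 0 of 46 passed by limma (1.02%, 0% and 0.0224% of all tested genes), and 7, 1 and 2 had an unadjusted p under 0.05.

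The inflammasome genes around Casp1 and Casp4 gave the only pathway call for tungstate. Pycard encodes ASC, the adaptor that joins sensors to Casp1, and read 7.70 and 7.62 in untreated and 7.79 and 7.42 in treated wild-type islets, and 8.56 and 8.05 in untreated and 6.88 and 7.09 in treated Irs2-/- islets. It fell by 1.32 ± 0.20 on the log2 scale with tungstate in Irs2-/- islets (2.50-fold, adjusted p = 0.0403), and the treated arrays were below those of every other group. The genotype difference on water was 0.65 ± 0.20 (adjusted p = 0.0586) and the interaction was -1.27 ± 0.28 (unadjusted p = 0.00185, adjusted p = 0.411). The fall passed in 8 of 18 alternatives. Over single arrays left out it passed only without untreated Irs2-/- replicate 2 (adjusted p = 0.0173 there and 0.0591 to 0.168 otherwise), and it ended without replicate 1 of both untreated groups (-1.07, adjusted p = 0.170) and with the mean of its probe sets (-0.54, adjusted p = 0.143).

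Gsdmd, the gasdermin that forms the pyroptotic pore, read 6.51 and 6.41 in untreated and 6.47 and 6.27 in treated wild-type islets, and 7.27 and 6.90 in untreated and 6.55 and 6.60 in treated Irs2-/- islets. All 4 Irs2-/- arrays lay above the wild-type ones. It was higher by 0.63 ± 0.15 on water (adjusted p = 0.0283), and tungstate in Irs2-/- islets gave -0.51 (adjusted p = 0.208). Without replicate 1 of both untreated groups the genotype difference was 0.49 (adjusted p = 0.218), and the call also ended without any 1 wild-type array or untreated Irs2-/- replicate 1 (adjusted p = 0.0519 to 0.130). The cytokine substrates of Casp1, named here after their values were seen, differed by 0.62 ± 0.22 for Il1b (adjusted p = 0.0893) and by -0.00031 for Il18 (adjusted p = 0.999), and the sensor gene Nlrp3 differed by 0.21 ± 0.11 (adjusted p = 0.232). Macrophage markers moved with Pycard and Gsdmd between the untreated genotypes and with tungstate in Irs2-/- islets. Between the genotypes on tungstate Pycard went the other way, with a mean of 6.98 in Irs2-/- and 7.61 in wild-type islets. The tested macrophage markers had a median difference of 0.35 there, and Gsdmd had means of 6.58 and 6.37. The part of macrophages in these values was not tested.

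**Figure D5:**
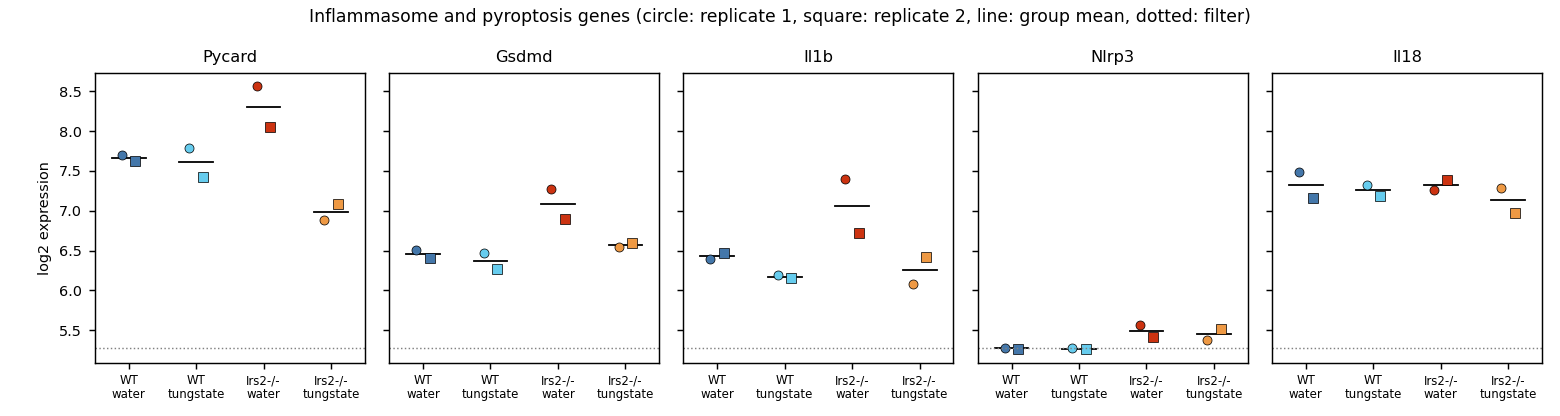
Log2 expression of 5 inflammasome and pyroptosis genes on each array, with replicate 1 as a circle, replicate 2 as a square, the group mean as a line and the filter on mean level dotted. Pycard, Gsdmd and Il1b were highest on the 2 untreated Irs2-/- arrays, and Pycard was lowest on the 2 treated Irs2-/- arrays.

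Other pathway genes that passed between the untreated genotypes were Bcap31, Bag3, Bag4, Htra2 and Aen. Bcap31, an endoplasmic reticulum protein that binds Bcl2 and is cut by Casp8, was higher by 0.78 ± 0.11 (adjusted p = 0.00590), with 10.27 and 10.25 in untreated wild-type and 10.95 and 11.13 in untreated Irs2-/- islets. Htra2, a mitochondrial protease that antagonises Xiap, was higher by 0.83 ± 0.18 (adjusted p = 0.0219), and Bag3, a co-chaperone of Hsp70, by 1.56 ± 0.37 (adjusted p = 0.0277). Aen, a p53-induced nuclease, was higher by 0.48 ± 0.13 (adjusted p = 0.0475), a call that held in 7 of 18 alternatives. Bag4, a silencer of death domains, was lower by 0.76 on the log2 scale, with 8.40 and 8.36 in untreated wild-type and 7.77 and 7.47 in untreated Irs2-/- islets (adjusted p = 0.0107). Without replicate 1 of both untreated groups these 5 kept their sign but not their call (adjusted p = 0.0532 to 0.246). Over single arrays left out, Bcap31 passed each time, Bag4 ended without either untreated wild-type array (adjusted p = 0.0539 and 0.0543), Htra2 without any 1 of the 4 untreated arrays (0.0624 to 0.103), and Bag3 and Aen without any 1 wild-type or untreated Irs2-/- array (0.0564 to 0.116 and 0.0834 to 0.194).

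Averaged over treatments, 5 pathway genes passed as higher and 5 as lower in Irs2-/- islets, or 21.7% (22.1% of all tested genes). The higher ones were Bcap31, Htra2, Gsdmd, Bag3 and Bnip2, a Bcl2-interacting protein (0.39 ± 0.11, adjusted p = 0.0442). On tungstate the genotypes overlapped for Bag3, with 7.51 and 7.59 in wild-type and 8.70 and 7.33 in Irs2-/- islets. The lower ones were Bag4, the mitochondrial channel gene Vdac1 (-0.36 ± 0.10, adjusted p = 0.0397), the p53 inhibitor gene Mdm4 (-0.37 ± 0.09, adjusted p = 0.0198) and the p53-induced genes Ei24 (-0.32 ± 0.08, adjusted p = 0.0277) and Trp53inp1 (-0.39 ± 0.11, adjusted p = 0.0387). Over single arrays left out, Bag4 and Bcap31 passed each time, and each of the other 8 calls ended without at least 1 array of the wild-type groups (highest adjusted p = 0.150, for Bnip2). Mdm4 gave 0.01 with the mean of its probe sets, which turns its sign. Of the 12 tested p53 targets and regulators, 3 passed as lower (11.2% of all tested genes) and 0 as higher (10.9%) in this average. The 3 include the inhibitor gene Mdm4, and Trp53 itself was not analysed here.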

How the data were processed

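Islet RNA, extracted with a Qiagen kit per the labels' protocols, was hybridised to 8 Affymetrix arrays. The authors deposited log2 expression per probe set. Per the submitters' processing notes the tools were RMA, affy and R 2.7.0. RMA fits probe sets across arrays and compresses low levels. Apart from 64 controls there were 45037 probe sets, and the annotation gave 1 gene for 34945, more than 1 for 932 and no gene for 9160. RefSeq held all 33 members found, matched by gene number, and 0 symbols changed.

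A gene's value was that of its probe set with the highest 8-array mean, and 4824 genes below the 40th percentile of probe set means were not tested. Group means were fitted on all 8 arrays with limma 3.58.1 in R 4.3.3 (version 1.17.8 of data.table), with 4 residual degrees of freedom and 3.89 from the prior. Benjamini-Hochberg adjustment ran over 13369 genes in each of 6 comparisons (threshold 0.05). The workflow was tested on simulated data.

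The members, gene lists and tests were chosen with earlier results of these data known. Given with full values are members past the threshold, Casp1, Casp4, Casp6 and the member of each role with the largest difference between untreated genotypes. Pathway genes past the threshold are also named, but values on every array are given only for Pycard and Gsdmd. Other members are given more briefly, so that every member is accounted for. Values of Bid and Pmaip1 on every array, and the mentions of single probe sets, were chosen after they were seen. Promoter windows come from RefSeq (GRCm38.p6). They were trimmed only where they ran more than a short stretch past the outermost annotated start of the gene. Matches were searched before trimming. Alternatives were other filters, variance models, normalizations, probe set rules and thresholds, the arrays compared alone, the replicate number as a block, and left-out arrays. Using every probe set as a feature and the wider kappa-B consensus were added after seeing the data. The sources used here give no scan dates.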

Additional observations from a re-analysis of the deposited data

How the results depend on the processing

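The count of members called between untreated genotypes (3) became 1 with a filter at the 60th percentile, 1 with only the arrays compared and 6 at an adjusted p under 0.1, and ranged from 0 to 4 when each array was left out. It was 0 without untreated wild-type replicate 2 and without untreated Irs2-/- replicate 1. The averaged count (4) became 7 at an adjusted p under 0.1 and ranged from 0 to 6 over single arrays left out, with 0 without treated wild-type replicate 2. The count on tungstate (0) and that for tungstate in Irs2-/- islets (0) ranged from 0 to 1 over single arrays left out. In the interaction and in wild-type islets the count was 0 under every alternative run. Same-numbered arrays did not deviate together in every pair of groups (correlations of -0.07 to 0.42), so the numbers were not taken as pairs. With the replicate number as a block, 4 members were called between untreated genotypes, 1 on tungstate (Bcl2, adjusted p = 0.0444), 0 for tungstate in either genotype and 5 in the average. Signs turned with the mean over probe sets for Casp9 on tungstate (0.014), Casp9 with tungstate in Irs2-/- islets (0.065), Mdm4 averaged (0.011) and Casp12 with tungstate in Irs2-/- islets (0.0025), and for the last without replicate 1 of both untreated groups (0.17). Over single arrays left out, the range crossed 0 for Bid between untreated genotypes (-0.61 to 0.55), Casp12 with tungstate in Irs2-/- islets (-0.39 to 0.29), Casp9 on tungstate (-0.39 to 0.0049), Casp9 with tungstate in Irs2-/- islets (-0.25 to 0.14) and Casp6 on tungstate (-0.017 to 0.49). The cause was not tested. Over 70 single-gene results and 1211 recomputed values, 1033 kept direction and side of the threshold, 130 lost the call, 36 gained one and 12 turned sign. Leaving out an array leaves its group with 1, which is then assumed to vary like the others, and lowers the residual degrees of freedom. Casp1, Casp4 and Casp12 lie near the filter on low values, where signal over background limits the size of a difference.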
